A study of Mus musculus with 6 samples.

Results

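The genes described here are the cadherins and protocadherins of the mouse, taken as every row whose symbol is CDH or PCDH, with any letters, followed by a number. The rule found 98 of the 23282 rows in each library's table. They comprised 5 type I and 13 type II classical cadherins, 5 atypical cadherins, 5 cadherin-related genes, 9 delta protocadherins and 2 other non-clustered protocadherins. The remaining rows were isoforms of the protocadherin clusters on chromosome 18, with 15 Pcdha rows, 22 Pcdhb genes and 22 Pcdhg rows. The libraries were 3' mRNA sequencing libraries (QuantSeq) of murine astrocytes named Ink4a-/- in the labels and Ink4a/Arf-/- in the study's methods, cultured in DMEM with 10% FBS. A total of 3 control libraries came from cells given the vector pcDNA3.1-puro, labelled WT, and 3 JAG1 libraries came from cells given pcDNA3.1-JAG1-puro. Both groups therefore share the loss of Ink4a and Arf and a plasmid with puromycin resistance, and the comparison asks how JAG1 overexpression altered the transcriptome. Nothing in the labels tells if each library had its own transfection or culture, so p-values measure only the spread between these libraries, which may be technical.

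Cadherins are calcium-dependent adhesion proteins that bind partners on neighbouring cells through repeated extracellular domains. The classical cadherins hold adherens junctions together through catenins and actin, and the exchange of E-cadherin (Cdh1) for N-cadherin (Cdh2) is a textbook mark of epithelial-mesenchymal transition. Protocadherins bind more weakly, act in recognition between cells of the nervous system, and are either single genes or isoforms of the clustered loci, where each isoform is started from its own promoter.

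Depth ranged from 14341634 to 20489062 reads per library, so that 3 reads, the limit that a count of 0 allows, stood for 0.148 to 0.206 CPM, the counts divided by library size. Levels are given as CPM with library sizes scaled by trimmed mean of M values (TMM), and intervals and floors cover counting error only. Reads were taken at the 3' end, and counts were not divided by transcript length. On log2(CPM + 1), libraries correlated at 0.992 to 0.997 within groups and at 0.944 to 0.951 between groups, and no library stood apart from its group. The Jag1 row held 182, 201 and 214 reads in the controls and 304, 197 and 227 in the JAG1 libraries. This was 10.3 ± 1.17 and 14.2 ± 0.862 CPM (SD, n = 3 each), a log2 fold change of 0.46 (SE 0.11, edgeR adjusted p = 0.00446). Whether this row also counts transcripts of the plasmid is not given in the sources used here, so it does not check the labels. Of the 10 astrocyte markers, Gfap and Aqp4 had 0 reads in every library, and Slc1a3 and Slc1a2 never exceeded 3. The other 6 (Aldh1l1, S100b, Aldoc, Sox9, Gja1 and Nes) had enough reads to be tested, and the list summed to 403 to 453 CPM in the controls and 158 to 169 CPM in the JAG1 libraries.

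Most cadherin genes were silent or nearly so at this depth. A total of 39 members had 0 reads in all 6 libraries, and a further 27 never had more than 3 reads in a library. A member was called detected in a group when each of its 3 libraries held more than 3 reads. By this rule 20 members were detected in the controls, 16 in the JAG1 libraries, 12 in both and 24 in either, that is 24.5% of the members against 53.1% of all rows. The members hold few rows with many reads. Cdh2 alone took 40.3% of all reads on members, Pcdhga9 24.1%, Pcdh19 15.6% and Pcdh18 12.8%, 92.8% together. Summed over the members, the level was 602 to 646 CPM in the controls and 469 to 508 CPM in the JAG1 libraries, and the mean fell by 21.9% (627 ± 22.4 against 489 ± 19.6 CPM; two-sided exact permutation p = 0.1, the smallest that 3 against 3 can give). Without Pcdh19 the ranges overlapped, at 473 to 505 and 434 to 473 CPM (exact permutation p = 0.2).

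After the filter on low counts, 19 members could be tested among 11712 genes. Of these, 5 were higher in the JAG1 libraries and 13 lower at an adjusted p under 0.05 (edgeR quasi-likelihood test), and Cdh2 was not called. Over all tested genes, 27.4% were higher, 27.7% lower and 55.1% called in either direction. At a change of at least 2-fold the members numbered 5 higher and 11 lower, against 5.46% and 8.49% of all tested genes. Of the 19, 10 had a mean of at least 10 reads in a single group only (6 in the controls and 4 in JAG1). These passed the filter through that group and therefore had to differ. Among the 9 that had a mean of at least 10 reads in both groups, 7 were lower, 1 was higher and 1 was not called. Of the 7, Cdh26 held 7 reads in JAG1 replicate 3, under the filter's minimum count of 10. It too passed the filter through the controls. The median log2 fold change of the tested members was -1.36, also with the 2 genes at 0 in a group set at their bounds, beside 0.00 for all tested genes. All 3 JAG1 libraries lay below all controls for 13 members and above them for 5, where 30.9% and 31.1% of all tested genes did so. No tested member lies on chromosome 15 or 19, where the median log2 fold change of all genes was -0.53 and 0.61.

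**Figure D1:**
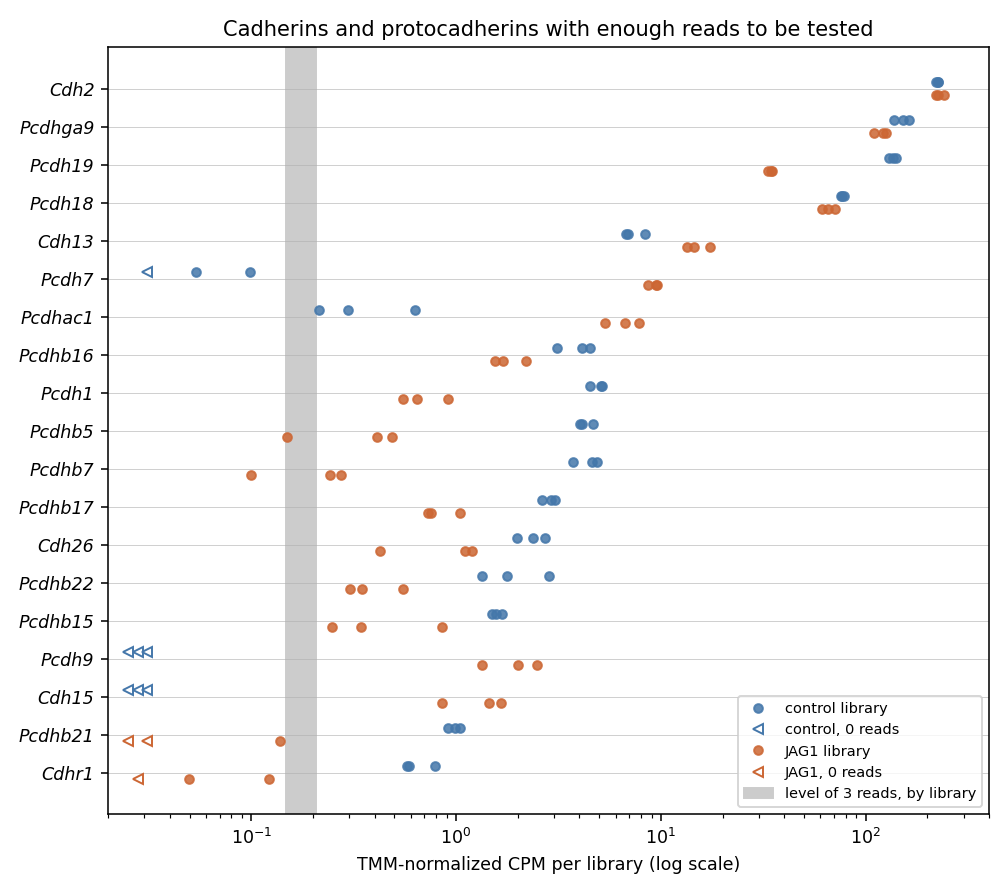
Level of each of the 19 tested members in each library, as TMM-normalized CPM on a log axis, with 1 point per library (3 control and 3 JAG1) and open triangles for libraries with 0 reads. The control and JAG1 points overlap for Cdh2 and are separate for the other 18 members, and Pcdh7, Pcdh9 and Cdh15 have their control points at or under the level of 3 reads (grey band).

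A total of 5 members switched between the groups, meaning 3 reads or fewer in each library of a group and 10 reads or more in each library of the other. Pcdh7, Pcdh9 and Cdh15 were on in the JAG1 libraries, and Cdhr1 and Pcdhb21 were on in the controls. This is 3 and 2 of the 59 members with a read, and over all rows with a read 0.495% switched on and 0.841% switched off. Each of the 5 passed the filter only through the group where it was on, so it had to differ. The adjusted p-values given below for these genes are therefore no separate support.

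Pcdh7, a delta protocadherin known from neural and retinal axons (chr5:57717967-58133230, plus strand), showed the strongest of these changes by reads. It held 2, 1 and 0 reads in the controls and 192, 138 and 143 in the JAG1 libraries, or 0.0508 ± 0.0494 and 9.25 ± 0.490 CPM. The groups were far apart, with a ratio of 179 (95% counting interval 60.9 to 872, exact binomial; edgeR adjusted p = 1.07e-08). Without control replicate 1, which holds 2 of the 3 control reads, the fitted log2 fold change went from 7.30 to 8.11. Pcdh9, a delta protocadherin of the developing brain (chr14:93013410-93890679, minus strand), held 0 reads in all 3 controls and 50, 29 and 22 in the JAG1 libraries. Its JAG1 level of 1.94 ± 0.579 CPM was at least 12.1-fold higher than the controls, with the floor set at 3 reads in the shallowest control library (edgeR adjusted p = 2.89e-05). Cdh15, or M-cadherin, a classical cadherin of skeletal muscle precursors (chr8:122847966-122867397, plus strand), held 0 reads in all 3 controls and 29, 24 and 14 in the JAG1 libraries. This was 1.32 ± 0.416 CPM, at least 8.17-fold higher by the same floor (edgeR adjusted p = 8.92e-05). All 3 genes were therefore present in each JAG1 library and at or under the floor in each control.

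Cdhr1, a cadherin-related protein of photoreceptor outer segments (chr14:37077857-37098347, minus strand), went the other way. It held 16, 11 and 11 reads in the controls and 1, 0 and 2 in the JAG1 libraries, or 0.652 ± 0.120 and 0.0571 ± 0.0610 CPM. The ratio of control to JAG1 was 11.2 (95% counting interval 3.54 to 56.5; edgeR adjusted p = 0.00127), and without JAG1 replicate 3 the fitted log2 fold change went from -3.33 to -4.21. Both levels are low, and the JAG1 libraries were all at or under the floor. Pcdhb21 is described with its cluster.

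Promoter sequences are shown for the 4 switching genes on chromosomes 5, 8 and 14 and for Pcdh19, the abundant protocadherin with the largest fall, as RefSeq gives them on GRCm38.p6. Each runs 5' to 3' on the gene's strand from 250 bases before the start to 50 bases after it. Capitals mark the letters CANNTG on both strands, the E-box core that basic helix-loop-helix proteins read. Its special case CAGGTG or CACCTG is the form that Snail and Zeb proteins read. The letters TGGGAA or TTCCCA, the core read by the NOTCH effector RBPJ, were also searched and are absent from these 5 windows. Of the other tested members with a promoter in the table, Cdh26 holds TTCCCA from 65 bases before its start, and Pcdh18 holds none of these letters. The windows are Pcdh7 at chr5:57717831-57718130 (plus strand), Pcdh9 at chr14:93890630-93890929 (minus), Cdh15 at chr8:122848124-122848423 (plus), Cdhr1 at chr14:37098298-37098597 (minus) and Pcdh19 at chrX:133688944-133689243 (minus).
Pcdh7: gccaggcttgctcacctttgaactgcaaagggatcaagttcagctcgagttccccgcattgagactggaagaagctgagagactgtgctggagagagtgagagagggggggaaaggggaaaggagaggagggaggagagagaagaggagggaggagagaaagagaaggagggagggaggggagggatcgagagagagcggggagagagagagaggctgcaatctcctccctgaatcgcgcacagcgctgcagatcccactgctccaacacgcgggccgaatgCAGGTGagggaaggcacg
Pcdh9: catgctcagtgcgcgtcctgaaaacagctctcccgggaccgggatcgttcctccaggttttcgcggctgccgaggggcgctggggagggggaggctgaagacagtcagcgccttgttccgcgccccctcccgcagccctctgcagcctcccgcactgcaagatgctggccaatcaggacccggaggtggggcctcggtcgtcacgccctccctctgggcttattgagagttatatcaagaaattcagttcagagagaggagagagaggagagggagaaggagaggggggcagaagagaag
Cdh15: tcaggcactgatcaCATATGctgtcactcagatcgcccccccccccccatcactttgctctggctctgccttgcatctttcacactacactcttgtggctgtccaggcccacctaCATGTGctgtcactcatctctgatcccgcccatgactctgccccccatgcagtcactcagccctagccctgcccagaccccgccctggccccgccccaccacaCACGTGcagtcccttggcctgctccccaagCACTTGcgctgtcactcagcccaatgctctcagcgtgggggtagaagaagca
Cdhr1: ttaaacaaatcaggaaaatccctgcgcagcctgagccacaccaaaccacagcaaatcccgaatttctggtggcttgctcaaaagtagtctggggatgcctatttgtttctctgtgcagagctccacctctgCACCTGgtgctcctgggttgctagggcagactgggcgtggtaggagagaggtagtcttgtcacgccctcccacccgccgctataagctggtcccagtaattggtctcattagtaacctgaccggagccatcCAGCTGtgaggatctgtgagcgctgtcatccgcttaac
Pcdh19: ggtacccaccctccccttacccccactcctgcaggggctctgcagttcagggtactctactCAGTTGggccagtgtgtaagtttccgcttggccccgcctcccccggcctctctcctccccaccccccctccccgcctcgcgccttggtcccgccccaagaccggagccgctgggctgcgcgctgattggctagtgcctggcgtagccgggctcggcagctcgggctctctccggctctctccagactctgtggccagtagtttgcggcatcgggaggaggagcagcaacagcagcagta

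The Pcdh7 window holds CAGGTG at base 33 after the RefSeq start. GENCODE starts this gene earlier, at chr5:57717967, inside the window. The Cdh15 window holds 4 E-box cores, beginning 236, 135, 32 and 2 bases before the RefSeq start, and none is CAGGTG or CACCTG. In GENCODE the Cdh15 gene starts earlier, at chr8:122847966, so the whole window lies within that gene. In Cdhr1, CACCTG begins 119 bases before the start and CAGCTG at base 13 after it, and in Pcdh19 CAGTTG begins 189 bases before it. The Pcdh9 window holds none of these letters. Across 32851 RefSeq promoters of the same length, 72.3% hold CANNTG, 20.2% hold CAGGTG or CACCTG, and 25.6% hold TGGGAA or TTCCCA. The number of CpG dinucleotides was 11 in Pcdh7, 18 in Pcdh9, 7 in Cdh15, 9 in Cdhr1 and 18 in Pcdh19, against a median of 7 and quartiles of 3 and 20 over all these promoters.

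Among the type I classical cadherins, N-cadherin was the main one in both groups. Cdh2 (chr18:16588877-16809246, minus strand) held 4450, 4206 and 4322 reads in the controls and 4848, 3204 and 3708 in the JAG1 libraries. These were 220, 226 and 226 CPM and 242, 220 and 225 CPM, so the groups overlapped. The means were 224 ± 3.59 and 229 ± 11.1 CPM, a log2 fold change of 0.03 (SE 0.05, 95% interval -0.08 to 0.15, edgeR adjusted p = 0.602). Without JAG1 replicate 1 the log2 fold change of Cdh2 was -0.0044.

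E-cadherin was near the floor. Cdh1 (chr8:106603351-106670246, plus strand) held 9, 9 and 4 reads in the controls and 2, 0 and 2 in the JAG1 libraries, or 0.379 ± 0.148 and 0.0737 ± 0.0647 CPM. Each JAG1 library lay below each control, but the gene did not pass the filter. With no filter its log2 fold change was -2.19 (SE 0.88, edgeR adjusted p = 0.0422). Of the 6 epithelial markers, Epcam had 0 reads, the summed level was 13.6 to 14 CPM in the controls and 0.399 to 1.44 CPM in the JAG1 libraries, and Krt14 made up most of it in the controls (12.7 CPM, against 0.151 CPM in JAG1). Whether epithelial cells were present, and any part of theirs in the Cdh1 level, was not tested. P-cadherin (Cdh3) held 3, 9 and 5 reads in the controls and 3, 3 and 5 in JAG1, overlapping ranges. R-cadherin (Cdh4) had at most 1 read in any library, and Cdh15 is the switching gene given above.

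The type II classical cadherins, which include VE-cadherin (Cdh5) and the mesenchymal Cdh11, were not detected. Of 13 rows, 9 had 0 reads throughout and none had more than 1 read in a library. In bulk libraries such as these, fewer cells of a type and less RNA per cell cannot be told apart.

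Among the atypical cadherins, T-cadherin rose. Cdh13, which is tethered to the membrane by a lipid anchor in place of a cytoplasmic tail (chr8:118283733-119324921, plus strand), held 140, 126 and 159 reads in the controls and 291, 252 and 222 in the JAG1 libraries. All JAG1 libraries were above all controls, with 7.33 ± 0.856 and 15.1 ± 2.0 CPM and a log2 fold change of 1.04 (SE 0.13, edgeR adjusted p = 4.09e-05). Cdh26 (chr2:178430531-178487366, plus strand) fell. It held 48, 37 and 52 reads against 24, 16 and 7, or 2.36 ± 0.367 against 0.907 ± 0.420 CPM, without overlap (log2 fold change -1.36, SE 0.33, adjusted p = 0.00438). With 7 reads in JAG1 replicate 3, Cdh26 passed the filter through the controls. Cdh17, a cadherin of intestinal epithelium, held 3, 6 and 10 reads in the controls and 7, 10 and 5 in the JAG1 libraries. It counts as detected in the JAG1 libraries only because a control library stood at the limit, and its ranges overlap. Cdh23, a tip-link cadherin of hair cells, had 0 reads in the controls and 2, 1 and 1 in JAG1, all within the floor, and Cdh16 had none. The cadherin-related genes other than Cdhr1, which are Cdhr2, Cdhr3, Cdhr5 and Pcdh15, had at most 2 reads in a library.

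The delta protocadherins carry conserved cytoplasmic motifs, and 5 of the 9 were tested. Of these, 2 rose (the switching Pcdh7 and Pcdh9) and 3 fell, where 27.4% and 27.7% of all tested genes did so. Pcdh19, the X-linked gene whose loss causes a girls-limited epilepsy in people (chrX:133582860-133688987, minus strand), was the member with the largest change in CPM. It held 2626, 2529 and 2701 reads in the controls and 693, 483 and 571 in the JAG1 libraries, which is 130, 136 and 141 CPM against 34.5, 33.2 and 34.7 CPM. The groups lay far apart and the JAG1 libraries close together, at 136 ± 5.81 and 34.1 ± 0.798 CPM, 3.97-fold lower in JAG1 (log2 fold change -1.99, SE 0.06, edgeR adjusted p = 7.42e-10).

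Pcdh1, which lies on chromosome 18 outside the clusters (chr18:38185914-38212053, minus strand), fell further from a lower level. It held 104, 95 and 86 reads in the controls and 13, 8 and 15 in JAG1, or 4.91 ± 0.358 and 0.703 ± 0.186 CPM. No library overlapped, and the level was 6.91-fold lower (log2 fold change -2.79, SE 0.22, edgeR adjusted p = 1.31e-06). Pcdh18 (chr3:49743296-49757325, minus strand) moved little. It held 1557, 1463 and 1442 reads against 1420, 954 and 1004, and 76.9 ± 1.56 against 65.8 ± 4.89 CPM. Its log2 fold change of -0.22 (SE 0.07, edgeR adjusted p = 0.0146) was not past the threshold without control replicate 2 (-0.21, adjusted p = 0.0609) or without JAG1 replicate 3 (-0.17, adjusted p = 0.0705). The remaining delta protocadherins were at the floor. Pcdh17 held 0 reads in the controls and 1, 1 and 3 in JAG1, Pcdh10 and Pcdh11x had at most 1 read in a library, and Pcdh8 had none. The other non-clustered protocadherins, Pcdh12 and Pcdh20, also had 0 reads in every library.

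**Figure D2:**
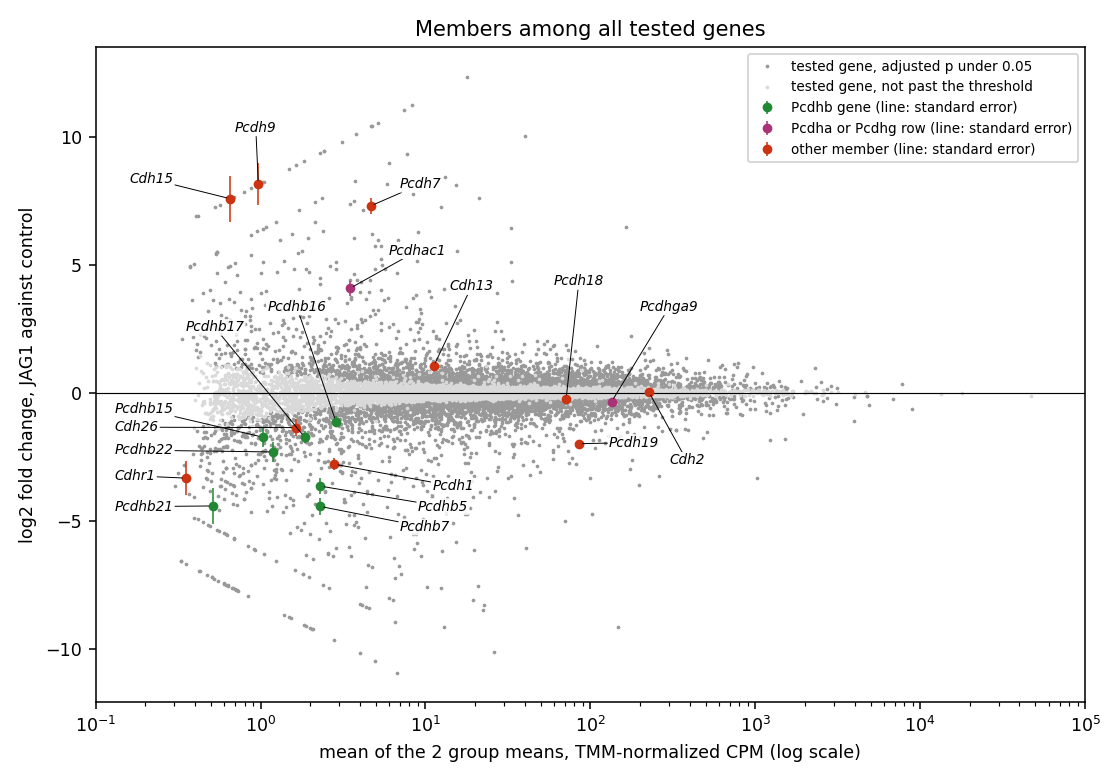
Log2 fold change of JAG1 against control for the 11712 tested genes against the mean of the group means in TMM-normalized CPM on a log axis, with the 19 tested members coloured by cluster and drawn with their standard errors. The 5 members above 0 that were called run from Cdh13 (1.04) upward, Cdh2 sits beside the zero line (0.03), and the Pcdhb genes all lie below it; fitted values of Pcdh9 and Cdh15 depend on the prior count because their controls hold 0 reads.

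The clustered protocadherins lie side by side on the plus strand of chromosome 18, Pcdha at chr18:36930184-37187661, Pcdhb at chr18:37264938-37524479 and Pcdhg at chr18:37661793-37841873. In the Pcdha and Pcdhg clusters each isoform has its own first exon and all share the last exons. The 13 Pcdha genes in GENCODE end within 4 bases of each other and the 22 Pcdhg genes within 3 bases, and all 50-base stretches of their last 300 bases are shared with other genes of the cluster. A 3' library therefore cannot tell their isoforms apart, and how the submitters assigned such reads is not given in the sources used here. In the deposited counts, 99.2% of Pcdha reads stood on the Pcdhac1 row and 99.6% of Pcdhg reads on the Pcdhga9 row, so each is read below as its cluster and not as that isoform. Pcdhb genes each end on their own, and 21 of the 22 share no 50-base stretch of their last 300 bases with another gene. The exception is Pcdhb21, whose end lies inside Pcdhb22.

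The Pcdha and Pcdhb clusters changed in opposite directions. On Pcdhac1 there were 6, 4 and 12 reads in the controls and 107, 113 and 110 in the JAG1 libraries, all of them above the controls. The levels were 0.379 ± 0.219 and 6.59 ± 1.22 CPM, 17-fold higher in JAG1 (log2 fold change 4.08, SE 0.30, edgeR adjusted p = 6.88e-07). Pcdhac1 passed the filter through the JAG1 libraries only and had to be higher. With the 15 Pcdha rows summed before the test, the log2 fold change was 3.97 (SE 0.29, adjusted p = 6.23e-07). Of the 15 rows, 12 had 0 reads in every library.

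The reads on the Pcdhb genes fell as a sum. Summed over the 22 genes there were 448, 411 and 435 reads in the controls and 70, 72 and 74 in the JAG1 libraries. The groups lay far apart, at 22.3 ± 0.383 and 4.31 ± 0.749 CPM, a ratio of 5.17. Fitted as a single feature, an alternative chosen after seeing the data, the log2 fold change was -2.39 (SE 0.12, edgeR adjusted p = 3.41e-08). All 16 genes with reads had fewer in the JAG1 libraries in total, and 6 had no reads. For 13 of the 16 each JAG1 library was below each control, and 7 of these were tested. The other 6 had too few reads, as Pcdhb11 with 1, 1 and 1 in the controls against 0, 0 and 0. Over all tested genes 30.9% lay so, a share that covers no genes with too few reads. The 7 tested genes were lower, by 2.18-fold to 21.7-fold, but 5 of them (Pcdhb5, Pcdhb7, Pcdhb15, Pcdhb21 and Pcdhb22) passed the filter through the controls only and had to be lower. Pcdhb16 and Pcdhb17 passed it in both groups.

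The Pcdhb genes with the most reads fell by different amounts. Pcdhb7 (chr18:37341702-37345202) held 99, 69 and 88 reads in the controls and 2, 4 and 4 in JAG1, or 4.40 ± 0.618 and 0.206 ± 0.0934 CPM (21.7-fold lower, log2 fold change -4.44, SE 0.32, edgeR adjusted p = 5.76e-07). Pcdhb5 (chr18:37320381-37323915) held 94, 75 and 79 against 3, 6 and 8, or 4.26 ± 0.329 and 0.349 ± 0.177 CPM (12.5-fold lower, log2 fold change -3.65, SE 0.31, adjusted p = 1.83e-06). In these genes the JAG1 libraries were at or near the floor. Pcdhb16 (chr18:37477814-37483038) held 63, 84 and 79 against 31, 32 and 28, or 3.92 ± 0.723 and 1.82 ± 0.343 CPM (log2 fold change -1.12, SE 0.22, adjusted p = 0.00121). Pcdhb17 (chr18:37484795-37489454) held 59, 49 and 58 against 21, 11 and 12, or 2.86 ± 0.207 and 0.844 ± 0.176 CPM (log2 fold change -1.73, SE 0.24, adjusted p = 1.03e-04). These genes kept more than 10 reads in every JAG1 library. Pcdhb21 held 20, 17 and 20 reads against 0, 2 and 0, a control to JAG1 ratio of 25.1 (95% counting interval 6.64 to 212; adjusted p = 2.57e-04). Both JAG1 reads were in replicate 2, without which Pcdhb21 was at least 5.39-fold lower against a floor of 3 reads per library. Its fitted log2 fold change, which depends on the prior count, was -4.42 with all libraries, -7.22 without JAG1 replicate 2 and -3.78 without JAG1 replicate 1. Because the end of Pcdhb21 lies in an exon of Pcdhb22 on the same strand, reads there could come from either gene, while the end of Pcdhb22 is its own.

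Named after their values were seen, Pcdhb15 and Pcdhb22 completed the 7, with log2 fold changes of -1.73 and -2.31 (SE 0.39 and 0.40, adjusted p = 0.00304 and 5.47e-04), and Pcdhb15 was at -2.42 without JAG1 replicate 3. The 9 untested Pcdhb genes with reads had at most 16 in a control and at most 2 in a JAG1 library, and 4 of them had 0 in every JAG1 library.

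**Figure D3:**
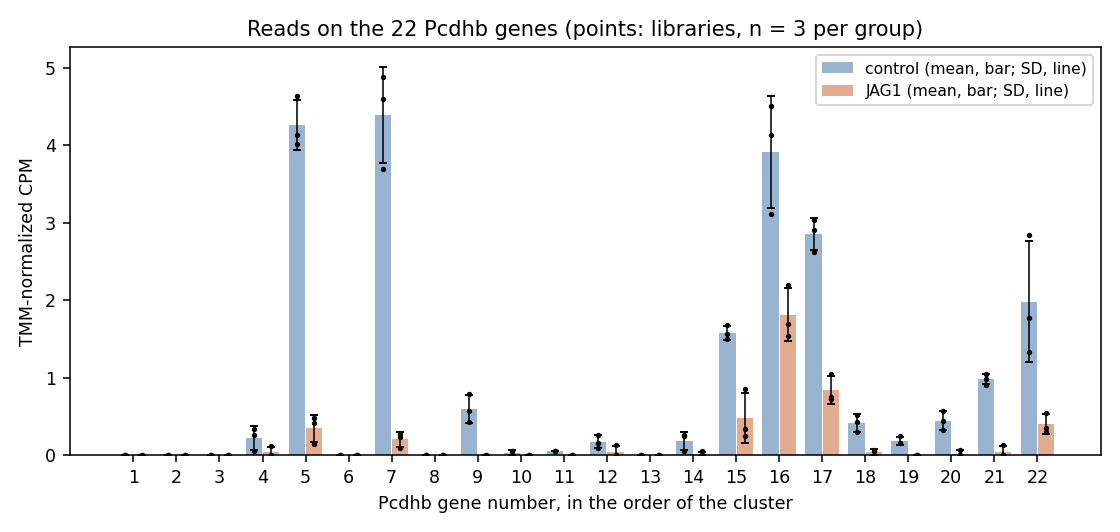
TMM-normalized CPM of the 22 Pcdhb genes in their order along the cluster, with bars for the mean of 3 libraries, lines for the SD and points for the libraries. The control bars of Pcdhb5, Pcdhb7 and Pcdhb16 stand at 3.92 to 4.40 CPM, and the JAG1 bar is shorter than the control bar at each of the 16 genes with reads.

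The Pcdhg cluster changed least of the 3 by fold and most in CPM. Pcdhga9 held 2775, 2837 and 3110 reads in the controls and 2433, 1819 and 1797 in JAG1. The JAG1 libraries were all lower, at 118 ± 8.34 against 151 ± 12.9 CPM (log2 fold change -0.35, SE 0.07, edgeR adjusted p = 0.00209). The 22 rows summed gave -0.34 (SE 0.07, adjusted p = 0.00210). Of these rows, 8 had 0 reads and 13 others shared the remaining reads, with at most 7 in a library.

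Genes around the clusters moved in both directions. Outside the members, chromosome 18 had 291 tested genes, of which 76 rose and 81 fell, and their median change was 0.02 on the log2 scale. Within 500 kb of the clusters 26 genes outside the members were tested. Of these 6 rose and 6 fell, with a median of -0.03 and a range of -0.71 to 2.42. The member Pcdh1 also lies within 500 kb and fell by more than any of them, with a log2 fold change of -2.79. Taf7, a TFIID subunit gene that lies between Pcdhb and Pcdhg and was picked after its value was seen, stood at 5.07 and 4.98 CPM (log2 fold change -0.03, adjusted p = 0.881).

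Isoform choice in these clusters is known to depend on CTCF and cohesin, which loop promoters to distant enhancers, and on DNA methylation and SMCHD1. All 11 listed regulators were tested, with a median of 0.04 on the log2 scale. Of these 3 rose and 5 fell, where 27.4% and 27.7% of all tested genes did so. Rad21 (-0.42) and Nipbl (-0.41), among those that fell, lie on chromosome 15, whose genes had a median of -0.53. The largest fall among the 11 was that of Stag2, a cohesin subunit, from 35.2 ± 2.72 to 3.2 ± 0.453 CPM (log2 fold change -3.45, SE 0.12, edgeR adjusted p = 1.69e-09). The largest rise was that of its paralog Stag1, from 67.0 ± 2.18 to 93.7 ± 3.91 CPM (0.48, SE 0.06, adjusted p = 3.97e-05). Their part in the cluster values was not tested.

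Catenins, the intracellular partners of the classical cadherins, moved in both directions. Of 10 catenin genes 7 were tested, 2 higher and 3 lower, where 27.4% and 27.7% of all tested genes were so, and their median was -0.11. Ctnnb1 (β-catenin) fell from 882 ± 22.5 to 760 ± 11 CPM (log2 fold change -0.22, SE 0.05, edgeR adjusted p = 0.00201) and Ctnna1 (α-catenin), which links it to actin, from 284 ± 11.3 to 182 ± 3.45 CPM (-0.64, SE 0.05, adjusted p = 1.09e-06). Ctnnd1 (p120-catenin), which holds cadherins at the surface, stood at 51.6 ± 20.5 and 48.0 ± 9.94 CPM (-0.11, adjusted p = 0.728). Ctnnal1 had the largest fall of the catenins (-0.86, adjusted p = 2.34e-05) and Pkp4 the largest rise (0.39, adjusted p = 3.32e-04).

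Among 12 junction linkers and nectins 11 were tested, with a median of -0.82. Of these 3 were higher and 6 lower, where 27.4% and 27.7% of all tested genes were so. Lima1, an actin-bundling protein bound to α-catenin, fell from 548 ± 11.4 to 204 ± 9.34 CPM (log2 fold change -1.43, edgeR adjusted p = 2.16e-09). Lima1 lies on chromosome 15, whose genes had a median of -0.53. Pvr, a nectin-like receptor, had the largest rise (0.48, adjusted p = 0.00233).

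Of 13 desmosomal genes only 3 were tested, and 8 had 3 reads or fewer in every library. Pkp2 rose (0.80, edgeR adjusted p = 7.24e-06), and Pkp1 fell (-3.38, adjusted p = 6.96e-04). Pkp1 held 22, 13 and 16 reads in the controls and 3, 0 and 1 in JAG1, all at or under the floor in JAG1. Of the 12 other genes with cadherin repeats in the tables, 3 were tested. Fat1, a giant cadherin that acts upstream of Hippo signalling, rose from 20.9 ± 2.97 to 37.2 ± 0.684 CPM (0.83, adjusted p = 3.09e-05), and none fell. Of 11 genes of the WAVE complex, an activator of actin nucleation that protocadherins can recruit, 8 were tested, with a median of -0.24. Of these 2 were higher and 5 lower, where 27.4% and 27.7% of all tested genes were so. Abi2 had the largest rise (0.43, adjusted p = 6.74e-04) and Abi3 the largest fall (-1.16, adjusted p = 8.35e-05).

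Transcription factors known to repress Cdh1 moved in both directions. Of 8 listed factors of epithelial-mesenchymal transition, 7 were tested, with a median of -0.45. Of the 7, 2 were higher and 4 lower, where 27.4% and 27.7% of all tested genes were so. Snai2 (Slug) rose from 1.77 ± 0.539 to 6.22 ± 0.535 CPM (log2 fold change 1.8, SE 0.21, edgeR adjusted p = 2.26e-05), and Snai1 (Snail) fell from 43.3 ± 2.78 to 16.5 ± 1.64 CPM (-1.39, SE 0.09, adjusted p = 2.45e-07). Twist1, the factor the study centres on and named here outside the rule for named genes, stood at 9.52 ± 1.20 and 11.3 ± 1.66 CPM (0.26, SE 0.14, adjusted p = 0.128). The study reported the rise of Twist1 in astrocytes and glioma cells given the intracellular domain of JAG1, a different comparison from this one.

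**Figure D4:**
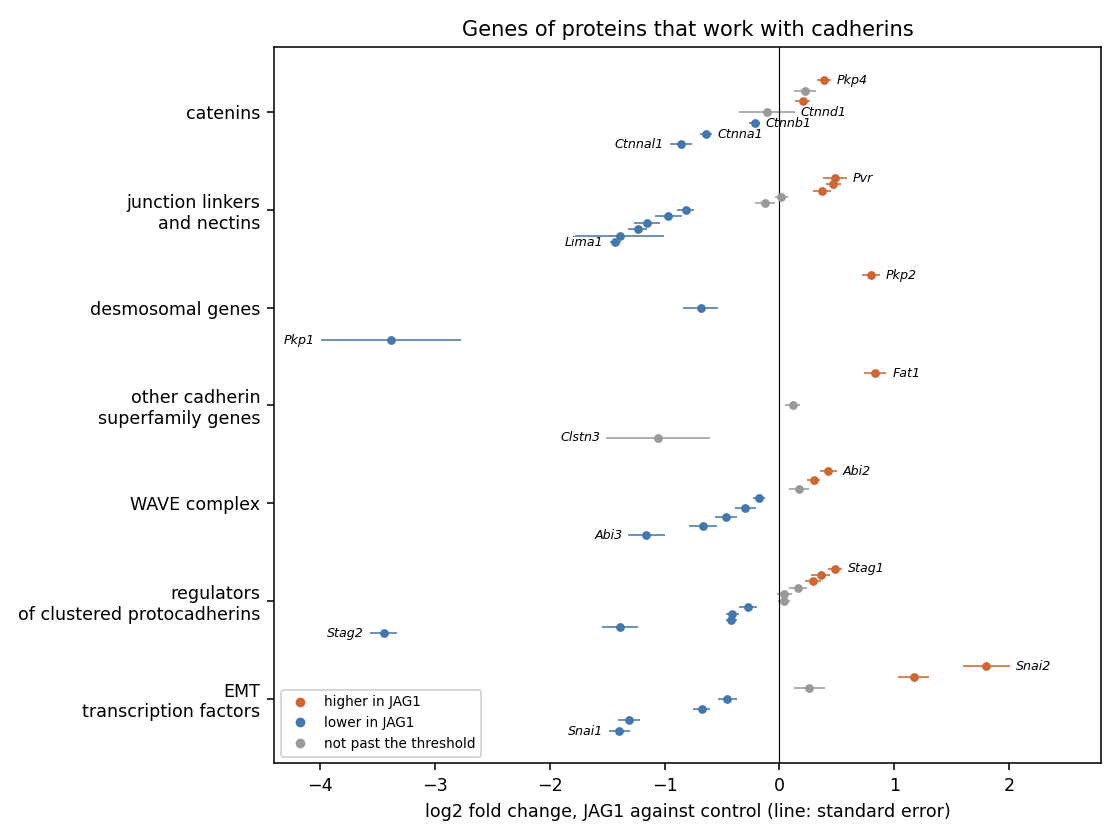
Log2 fold change of JAG1 against control for the tested genes of the 7 partner lists, with lines for the standard error and labels for the catenins and the extremes of each list. Stag2 (-3.45) and Pkp1 (-3.38) lie farthest to the left and Snai2 (1.8) farthest to the right, while the catenins lie between -0.86 and 0.39. Pkp1 held 3 reads or fewer in each JAG1 library.

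Markers of cell types moved with the groups as well. Over all tested genes 27.4% were higher and 27.7% lower. All 6 tested astrocyte markers were lower in JAG1, with Sox9 at 181 and 18 CPM. The 8 mural and fibroblast markers summed to 504 to 551 and 272 to 319 CPM, with 1 higher and 4 lower of 5 tested, and Rgs5, Kcnj8 and Lum at 0. The 8 neuronal markers summed to 96.8 to 107 and 58.5 to 61.4 CPM, from Tubb3 (lower) and Map2 (higher), with Snap25, Syt1 and Gad1 at 0. The summed microglial markers were at 3.31 to 4.24 and 1.79 to 2.54 CPM, and those of the oligodendrocyte lineage at 5.07 to 6.82 and 4.54 to 5.22 CPM. The ependymal and choroid plexus markers summed to 0.627 to 1.34 and 0.85 to 1.51 CPM, and of the 6 endothelial markers 5 never exceeded 3 reads. The part of a changed cell composition or state in the cadherin values was not tested.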

How the data were processed

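RNA of control and JAG1 cells was sequenced as QuantSeq 3' libraries, 3 per group. The deposited tables hold raw read counts per gene symbol and a log2 normalized value made by the authors, 1 table per library. Per the submitters' processing notes the tools were Bowtie2, bedtools and edgeR with GRCm38 (mm10). Versions, the counting rule and the handling of reads that match several places are not given in the sources used here. Depth was 14341634 to 20489062 reads per library. Counts were fitted over all genes with edgeR 4.0.16 in R 4.3.3 (filterByExpr with a minimum count of 10, TMM, quasi-likelihood test, Benjamini-Hochberg adjustment, threshold 0.05), and 11712 genes passed. The scripts were tested on simulated data. Errors are SD over 3 libraries.

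Alternatives were DESeq2 1.42.0, limma 3.58.1 (voom, and on the authors' log2 values), other scalings and filters, Pcdha, Pcdhg or Pcdhb rows summed, other detection limits, each library left out and a replicate block. Members and gene lists were chosen with earlier results of these data known. Named members were those that switched, those called with at least 2-fold change, the 10 with the highest mean CPM, Cdh1 and Cdh2, with at most 4 rows of a cluster. Outside the members, these were Jag1, Ctnnb1, Ctnna1, Ctnnd1 and the called extremes of each list. Gene positions come from GENCODE on GRCm38, and promoters from RefSeq on GRCm38.p6. Of the tested members, 7 matched a promoter outside chromosome 18. Group labels came from the titles.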

Additional observations from a re-analysis of the deposited data

How the results depend on the processing

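The counts of members higher (5) and lower (13) were the same under edgeR with DESeq2 size factors, library size alone, upper-quartile factors and TMM factors without chromosomes 15 and 19, and under DESeq2, limma-voom, limma on the authors' log2 values and Pcdha and Pcdhg rows summed. Each of these settings but the summed rows called the same 18 members. With Pcdhb rows summed 7 members were lower and 15 were detected, by construction, since 1 feature replaces 22. With no filter 18 members were lower, and with a mean count of at least 10 reads 11. Requiring a fold of at least 2 left 639 genes higher and 994 lower. With 1 or 10 reads in place of 3 as the limit, 2 or 8 members switched, and with group totals 13 switched and 37 were detected. Leaving out each library gave 5 members higher, 13 to 14 lower, 5 to 6 switching and 24 to 25 detected, and 2724 to 3256 genes higher and 2792 to 3344 lower over all genes. Among fold changes of named members refitted this way, 111 kept direction and side of the threshold, 2 (Pcdh18) lost the threshold, and Cdh2, which was not called, ranged from -0.0044 (without JAG1 replicate 1) to 0.063. The cause was not tested. The replicate numbers pair nothing in the labels. Same-numbered libraries deviated together with correlations of 0.208, 0.0571 and 0.138, so they were taken to share only a number, and not every library correlated best with its own number. With the replicate block, 5 members were higher and 13 lower, and 3380 genes higher and 3331 lower. Depth limits the genes near 3 reads, where a count of 0 does not show absence.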
